A study of Mus musculus with 6 samples.

Results

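The ion solute carriers described here are the 63 genes of the 53746 in the count table whose symbol is Slc4a, Slc8a, Slc9a, Slc12a, Slc24a, Slc30a, Slc39a or Slc41a followed by a number. This rule uses the symbol and no measured value. RNA was sequenced from the cerebella of 6 mice at 2 months of age. The 3 control mice were N153SLSL/LSL, homozygous for a *Sting1* N153S knockin that a LoxP-Stop-LoxP (LSL) cassette holds silent, and the 3 N153SLSL/LSLPcp2-cre (Pcp2-cre) mice carried the same alleles together with *Pcp2-cre*, a transgene with Purkinje cell promoter sequences that drives Cre. Controls lacked the transgene, so an effect of Cre itself and an effect of the mutant STING cannot be told apart. In each genotype mice 1 and 2 were male and mouse 3 was female. The tissue was whole cerebellum, and a value sums all of its cell types.

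These families set the ionic composition of cells. Slc4 carriers move bicarbonate and Slc9 carriers exchange sodium for protons, and together they set the pH of the cytosol, of vesicles and of the fluid that epithelia secrete. Slc8 and Slc24 carriers expel calcium in exchange for sodium, the latter with potassium, and are abundant at neuronal membranes. Slc12 carriers couple chloride to sodium or potassium and set the chloride gradient on which GABA receptors of cerebellar neurons depend. Slc30 carriers remove zinc from the cytosol, Slc39 carriers bring it in, and Slc41 carriers move magnesium.

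Total counts lay between 6733178 and 10178218 per mouse, of which the 63 genes took 0.450% to 0.477%. The engineered gene *Sting1* had 25.5 ± 2.09 CPM over the controls against 38.02 ± 5.55 CPM over the Pcp2-cre mice (SD, n = 3 each) and was called higher, without overlap of the groups. Calls come from the quasi-likelihood test of edgeR, Benjamini-Hochberg adjusted over all 16961 genes tested, with the thresholds of the study, 0.05 for the adjusted p and 0.5 for the size of the log2 fold change. CPM are counts relative to the TMM-scaled size of the library. FPKM, which also divides by transcript length, is used to compare levels between genes. Of 10 choroid plexus genes, summed CPM were 823 and 1273 in control mice 1 and 2 but 34.5 in control mouse 3, against 24.5 to 91.3 in the Pcp2-cre mice. Choroid plexus is the secretory epithelium that borders the cerebellum, so values of the carriers are given below with and without these libraries where they rest on them. Of 10 Purkinje cell genes, 8 were called lower, with a list median of -0.77. Of 8 microglial genes 6 were called higher and of 8 astrocyte and Bergmann glia genes 2. The latter list went both ways. At an adjusted p of at most 0.05 with any fold change, 4 of its genes were higher and 2 lower (*Slc1a3* -0.22 and *Gdf10* -0.25). None of the granule cell, oligodendrocyte or endothelial genes was called in either direction. The part that these cell types had in the values of the carriers was not tested beyond the choroid plexus and Purkinje cell comparisons below. The cerebral cortex genes summed to 6.51 to 8.93 CPM per mouse.

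In all, 5 carriers were lower in Pcp2-cre cerebella and none was called higher. The 5 were *Slc9a3*, *Slc41a3*, *Slc12a8*, *Slc39a11* and *Slc4a5*, 1 each from the sodium-proton, magnesium, cation-chloride, zinc and bicarbonate families. *Slc9a3* and *Slc41a3* were lower by 1.22 and 1.01 on the log2 scale and kept their call in every alternative fit run. *Slc4a5* was high in control mice 1 and 2 alone, the mice with the most choroid plexus signal. Most of the other carriers, *Slc12a5* and *Slc24a2* among them, differed between genotypes by less than 0.25 on the log2 scale. *Slc4a10*, one of the most abundant, did not, with a log2 fold change of -0.37, short of the fold threshold.

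Of the 63 carriers 53 passed the filter on low counts. The 5 called lower are 9.43% of these 53, against 1.79% of all genes tested. No carrier was called higher, against 1.37% of all genes, while *Slc9a9* and *Slc30a10* were higher at an unadjusted p under 0.05 and DESeq2 also called none higher. At an adjusted p of at most 0.05 with any fold change 7 carriers were lower, which is 13.2% against 4.75% of all genes. *Slc4a10* and *Slc12a4* were the added 2. The groups did not overlap in 11 of the 53, 8 lower and 3 higher, which is 20.8% against 22.2% of all genes, so the carriers as a list did not stand out by this measure. The median log2 fold change was -0.036, beside 0.0045 over all genes, and 22 of the 53 values were above 0. In 39 of the 53 the change was under 0.25 in size (73.6%, against 81.2% of all genes).

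**Figure D1:**
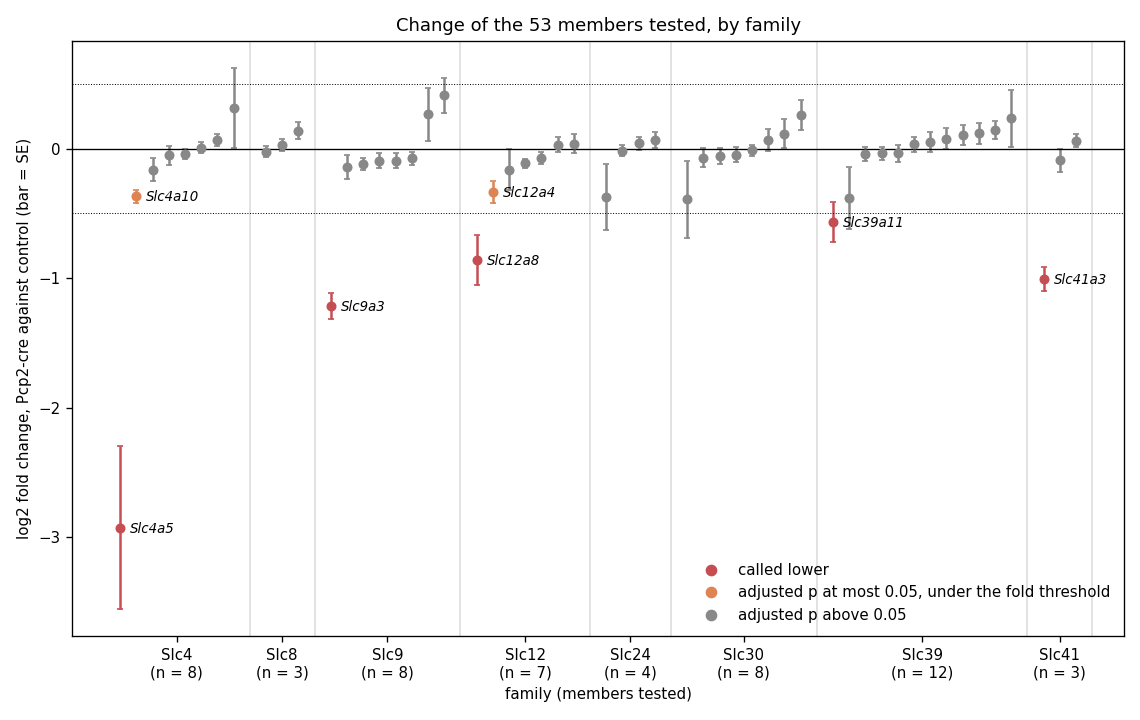
Log2 fold change (Pcp2-cre against control, vertical axis) of the 53 carriers tested, grouped by family along the horizontal axis, with the standard error as a bar. Red points are the 5 called lower, orange points the 2 with an adjusted p of at most 0.05 under the fold threshold (dotted lines at 0.5 and -0.5), and grey points the other 46, which lie between -0.39 and 0.41.

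*Slc9a3* (ENSMUSG00000036123, GRCm39 chromosome 13 from 74269360 to 74317561, forward strand) encodes NHE3, the sodium-proton exchanger best known from the apical membrane of kidney tubules and intestine. It had 30.9, 31.9 and 29.4 CPM for controls 1 to 3 and 15.01, 11.5 and 13.2 CPM for Pcp2-cre mice 1 to 3. The groups lay far apart, and the controls differed among themselves by less than the Pcp2-cre mice did. The means were 30.7 ± 1.23 CPM over the controls against 13.2 ± 1.74 CPM over the Pcp2-cre mice (SD, n = 3 each), a log2 change of -1.22 ± 0.1001 (SE, adjusted p = 2.08e-08 in edgeR), so 43.1% of the control level remained. Its deposited level was 5.87 ± 0.188 FPKM over the controls against 2.55 ± 0.350 FPKM over the Pcp2-cre mice, a low level beside the neuronal carriers. With each mouse left out in turn the log2 fold change stayed between -1.32 and -1.12. By p it stood 63rd among the 304 genes called lower. In Gencode M39, 4.97% of its exon bases overlap *Exoc3* on the opposite strand, and the use of strand in the counting is not given in the sources used here. Which cell types held this RNA was not tested. Fewer cells of a type and less RNA per cell cannot be told apart in bulk tissue, here or in the results that follow.

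*Slc41a3* (ENSMUSG00000030089, chromosome 6 from 90581677 to 90623394, forward strand) encodes a member of the magnesium carrier family. It had 39.7, 43.8 and 34.7 CPM for controls 1 to 3 and 19.5, 18.7 and 20.1 CPM for Pcp2-cre mice 1 to 3. The Pcp2-cre mice were nearly equal and all lower than the lowest control. The means were 39.4 ± 4.56 CPM over the controls against 19.4 ± 0.713 CPM over the Pcp2-cre mice (SD, n = 3 each), a log2 change of -1.01 ± 0.0926 (SE, adjusted p = 1.10e-07 in edgeR), with 49.4% of the control level left. Its deposited level was 13.4 ± 0.948 FPKM over the controls against 6.25 ± 0.302 FPKM over the Pcp2-cre mice. Leave-one-out fits gave values between -1.10 and -0.93. Gencode M39 lists no other gene over its exons. The study singled out groups of channel and transporter genes on these same samples, so a lower carrier here is no independent evidence of their direction.

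The regions at the starts of these transcripts are shown because both genes were lower in every fit. For each gene the 250 bases before and 50 bases after the start in RefSeq (GRCm38.p6 table, each matched once to GRCm39) are printed 5′ to 3′ on the forward strand, with the letters CACGTG, an E-box read alike on both strands, in capitals. The RefSeq start of *Slc9a3* lies 172 bp inside the Gencode M39 gene, and the window spans both starts. For *Slc41a3* it lies 14551 bp inside, so the same span around the first Gencode base is printed as well.
Slc9a3, chr13:74269282-74269581: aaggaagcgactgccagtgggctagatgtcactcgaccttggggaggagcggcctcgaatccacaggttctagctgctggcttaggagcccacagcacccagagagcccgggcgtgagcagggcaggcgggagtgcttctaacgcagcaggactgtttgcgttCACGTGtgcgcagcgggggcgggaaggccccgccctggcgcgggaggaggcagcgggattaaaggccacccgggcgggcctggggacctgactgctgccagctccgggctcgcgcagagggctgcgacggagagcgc
Slc41a3 at the RefSeq start, chr6:90595978-90596277: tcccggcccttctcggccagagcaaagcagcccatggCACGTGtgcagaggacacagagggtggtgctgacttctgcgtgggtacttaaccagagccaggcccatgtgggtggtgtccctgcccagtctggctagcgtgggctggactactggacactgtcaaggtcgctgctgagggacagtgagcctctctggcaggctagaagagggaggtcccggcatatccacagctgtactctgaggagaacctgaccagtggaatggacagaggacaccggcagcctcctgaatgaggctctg
Slc41a3 at the first Gencode base, chr6:90581427-90581726: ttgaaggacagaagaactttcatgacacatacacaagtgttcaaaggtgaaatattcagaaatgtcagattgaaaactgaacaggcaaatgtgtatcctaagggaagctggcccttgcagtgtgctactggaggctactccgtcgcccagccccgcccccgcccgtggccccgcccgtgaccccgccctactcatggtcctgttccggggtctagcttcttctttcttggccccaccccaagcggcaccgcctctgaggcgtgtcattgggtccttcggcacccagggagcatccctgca

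Both RefSeq windows hold CACGTG once, with its first base 87 bases before the RefSeq start of *Slc9a3* and 213 bases before that of *Slc41a3*. In Gencode M39 these bases lie 85 and 14338 bp inside the genes, not before their starts. The window at the first Gencode base of *Slc41a3* does not hold it. The motif was picked after these letters were seen. It is present in 7.15% of the 32851 windows of the RefSeq table and in 17.2% of the 58 windows of the carriers tested (50 of the 63 carriers have an entry). Of the 11 windows of the 7 carriers with an adjusted p of at most 0.05 it is in 3, the third belonging to *Slc39a11*. AGGTCA, searched on both strands, is in 16.3% of all windows and in 0 of these 11. A match of letters is a description and says nothing of a factor.

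*Slc12a8* (ENSMUSG00000035506, chromosome 16 from 33337686 to 33484506), an outlying relative of the cation-chloride cotransporters, had few reads. It had 63, 42 and 64 counts for controls 1 to 3 and 32, 29 and 25 counts for Pcp2-cre mice 1 to 3. All Pcp2-cre values lay below all controls in CPM, with means of 6.82 ± 0.903 CPM over the controls against 3.75 ± 0.436 CPM over the Pcp2-cre mice (SD, n = 3 each). The log2 change was -0.86 ± 0.192 (SE, adjusted p = 0.00513 in edgeR), and its adjusted p reached 0.0489 when 1 mouse was left out. *Slc39a11* (ENSMUSG00000041654, chromosome 11 from 113134467 to 113541227, reverse strand) encodes the zinc carrier ZIP11. It had 9.98, 11.9 and 9.21 CPM in the controls and 6.72, 6.58 and 7.55 CPM in the Pcp2-cre mice. The groups were apart by a narrow margin, and the log2 change was -0.57 ± 0.153 (SE, adjusted p = 0.0231 in edgeR). The adjusted p of *Slc39a11* rose above 0.05, to 0.111 at most, without control mouse 1, control mouse 2, Pcp2-cre mouse 1 or Pcp2-cre mouse 2, and its FPKM values overlapped between genotypes. Without Pcp2-cre mouse 2 the carriers called fell to 3, since *Slc4a5* (adjusted p = 0.0816 in edgeR) was lost as well. In that fit 243 genes of the whole table were called lower, against 304 with all mice.

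*Slc4a10* and *Slc12a4* changed by less than the fold threshold. *Slc4a10* (ENSMUSG00000026904, chromosome 2 from 61876500 to 62157100) encodes a sodium-driven bicarbonate carrier of neurons and choroid plexus. It had 298, 274 and 257 CPM for controls 1 to 3 and 207, 220.2 and 214 CPM for Pcp2-cre mice 1 to 3. No Pcp2-cre mouse reached the lowest control, and the log2 change was -0.37 ± 0.0501 (SE, adjusted p = 2.67e-05 in edgeR), with leave-one-out values between -0.42 and -0.31. Among the carriers past the adjusted p it was the most abundant, at 45.97 ± 3.40 FPKM over the controls against 36.04 ± 0.879 FPKM over the Pcp2-cre mice. *Slc12a4* (ENSMUSG00000017765, chromosome 8 from 106670216 to 106692790, reverse strand) encodes KCC1, the potassium-chloride cotransporter found in most cell types. It had 43.7, 48.5 and 38.3 CPM in the controls and 31.9, 35.7 and 35.2 CPM in the Pcp2-cre mice, a log2 change of -0.33 ± 0.0849 (SE, adjusted p = 0.0158 in edgeR). Its adjusted p rose above 0.05 in the same 4 fits as that of *Slc39a11*, and 10.5% of its exon bases overlap the opposite-strand *Gm16156*.

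**Figure D2:**
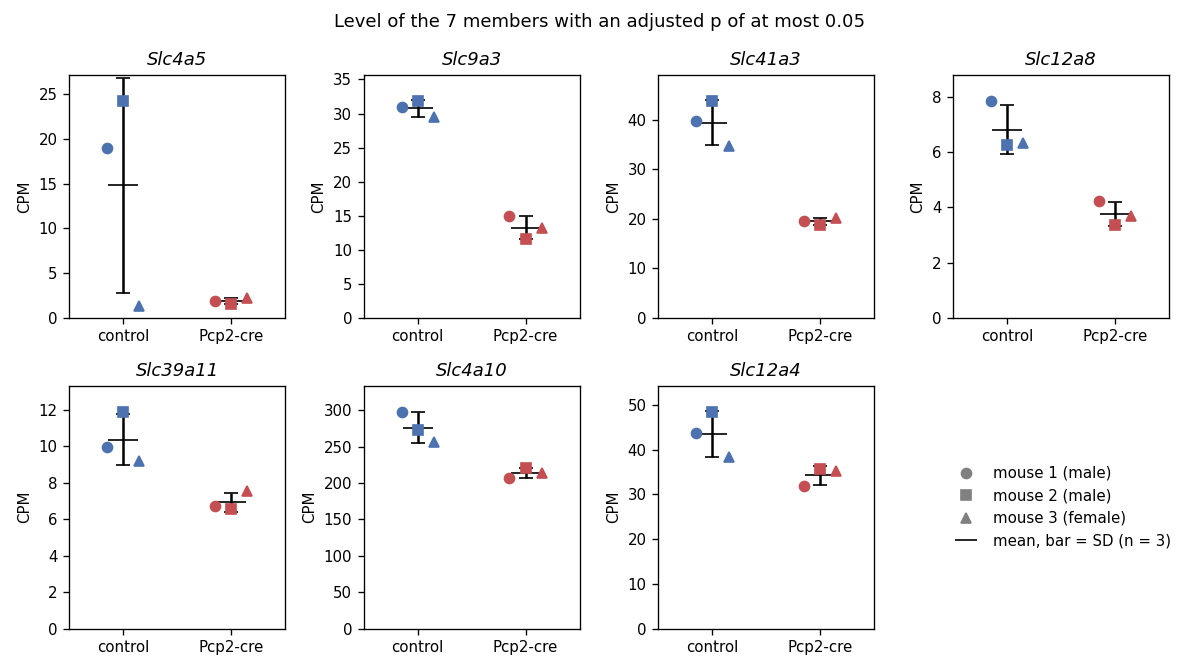
CPM (vertical axis, from 0, a separate scale per gene) of the 7 carriers with an adjusted p of at most 0.05 in each control (blue) and Pcp2-cre (red) mouse, with the mean and SD of 3 mice in black and the mouse number as the symbol. Groups are apart in each gene but *Slc4a5*, in which control mouse 3 lies below the Pcp2-cre mice.

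*Slc4a5* (ENSMUSG00000068323, chromosome 6 from 83196810 to 83281927) encodes NBCe2, a sodium-bicarbonate cotransporter of the choroid plexus. It had 152, 163 and 13 counts for controls 1 to 3 and 14, 13 and 15 counts for Pcp2-cre mice 1 to 3. Control mice 1 and 2 were far above the rest, while control mouse 3, at 1.29 CPM, lay below all 3 Pcp2-cre mice, so the groups overlapped. The means were 14.8 ± 12.03 CPM over the controls against 1.85 ± 0.359 CPM over the Pcp2-cre mice (SD, n = 3 each) and the log2 change was -2.93 ± 0.631 (SE, adjusted p = 0.00389 in edgeR). A choroid plexus score was the mean log2 CPM of the 6 genes of the choroid plexus list that passed the filter. The 3 mice with the highest CPM of *Slc4a5* were, in the same order, the 3 with the highest score. The other 3, at 13 or 14 counts, ran in the opposite order to the score. *Ttr*, the most abundant gene of the list, had 645, 1027 and 3.07 CPM in the controls and 4.21, 6.81 and 61.4 CPM in the Pcp2-cre mice. *Folr1*, *Kcne2*, *Aqp1* and *Sostdc1* did not pass the filter and are not in the score. They had at most 0.592 CPM in each Pcp2-cre mouse and at most 0.396 CPM in control mouse 3. Of the 6 choroid plexus genes tested 5 were called lower.

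In 2 further fits the movement of the 7 lower carriers with the choroid plexus genes was measured. One added each mouse's choroid plexus score, from 6 genes, as a covariate. The other, chosen after seeing the data, kept control mouse 3 as the only control, which assumes that a lone control varies like the Pcp2-cre mice. *Slc4a5* went to 0.020 with the covariate and to 0.50 (standard error 0.489) against control mouse 3. *Slc9a3* kept its call with -1.17 and -1.16. *Slc41a3* kept it with -0.84 and -0.84. *Slc4a10* kept its adjusted p, with -0.28 (0.00106 in edgeR) and -0.27. With the covariate 3 of the 7 kept an adjusted p of at most 0.05 in edgeR. The score was 5.39, 5.86 and 1.91 in controls 1 to 3 and 1.36, 1.84 and 2.86 in Pcp2-cre mice 1 to 3. It thus mostly parted control mice 1 and 2 from the rest. Both fits lean on control mouse 3 and are not separate checks. *Slc12a8* changed little in size, to -0.80 and -0.76, but its adjusted p was 0.0614 and 0.0718 in these edgeR fits. *Slc39a11* went to -0.40 and -0.41, with adjusted p of 0.357 and 0.333. *Slc12a4* went to -0.16 in both, and its adjusted p was 0.507 and 0.600. With the covariate 2 of the 53 carriers tested were called lower (3.77%), beside 235 of the 16961 genes tested in the whole table. Lower choroid plexus signal and the female sex of mouse 3 coincided in controls. Sex as a covariate left all 5 calls. Sex was balanced between genotypes, so that fit could move the genotype difference little and does not separate sex from choroid plexus signal.

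**Figure D3:**
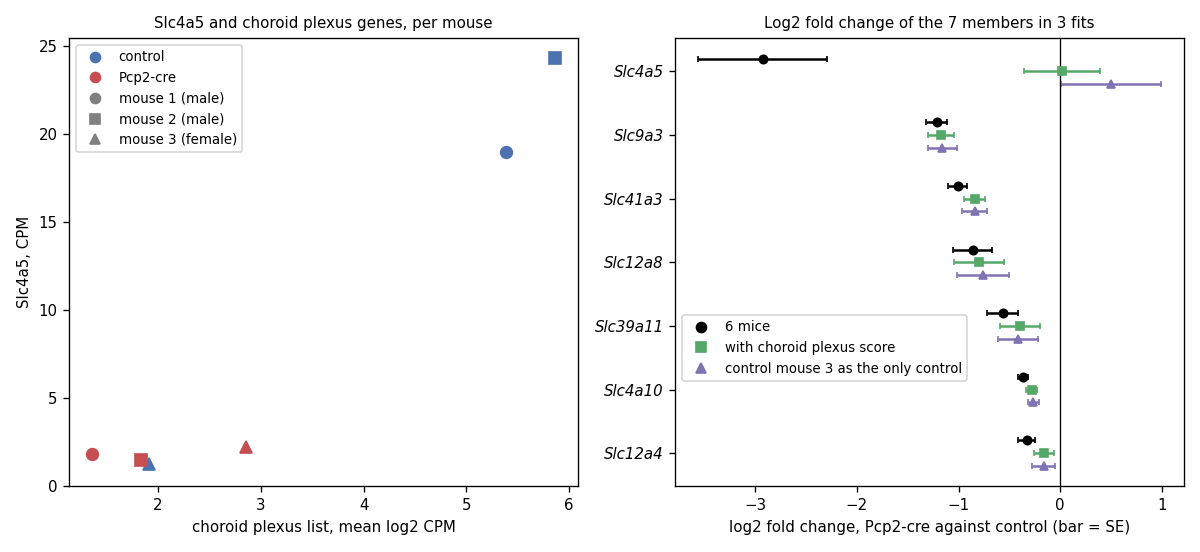
Left, *Slc4a5* in CPM against the mean log2 CPM of the 6 choroid plexus genes tested, per mouse (blue control, red Pcp2-cre). Control mice 1 and 2 stand alone at the upper right and control mouse 3 sits with the Pcp2-cre mice. Right, log2 fold change with its standard error of the 7 carriers in 3 edgeR fits. *Slc9a3* and *Slc41a3* stay under -0.8 in each, and *Slc4a5* goes from -2.93 to 0.020 and 0.50.

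The called carriers were also set against Purkinje cell genes of the same library, as the log2 CPM of the carrier minus the mean log2 CPM of the 10 genes. That list itself was lower by 0.71 in Pcp2-cre mice. The log2 fold changes of its genes ran from -0.98 (*Itpr1*) to -0.22 (*Pvalb*). That of *Slc9a3* (-1.22) lay below this range, while that of *Slc41a3* (-1.01) was close to *Itpr1*. A shift against the mean of the list thus does not set a carrier apart from each of its genes. For *Slc9a3* the difference was -3.85, -3.85 and -3.86 for controls 1 to 3 and -4.27, -4.45 and -4.34 for Pcp2-cre mice 1 to 3. The carrier was thus lower relative to the list by 0.50 on the log2 scale, without overlap (p = 0.10 in a two-sided exact permutation test, the lowest value possible for 3 against 3). For *Slc41a3* the shift was -0.30, also without overlap (exact permutation p = 0.10). *Slc12a8* shifted by -0.11 (exact permutation p = 0.40) and *Slc39a11* by 0.15 (exact permutation p = 0.20), both with overlap. For *Slc4a5* the shift was -1.40 (exact permutation p = 0.40), with the spread of its controls. These tests cannot pass 0.05 at this size. Without *Pcp2* and *Itpr1* in the list the shifts of *Slc9a3* and *Slc41a3* were -0.50 and -0.29.

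**Figure D4:**
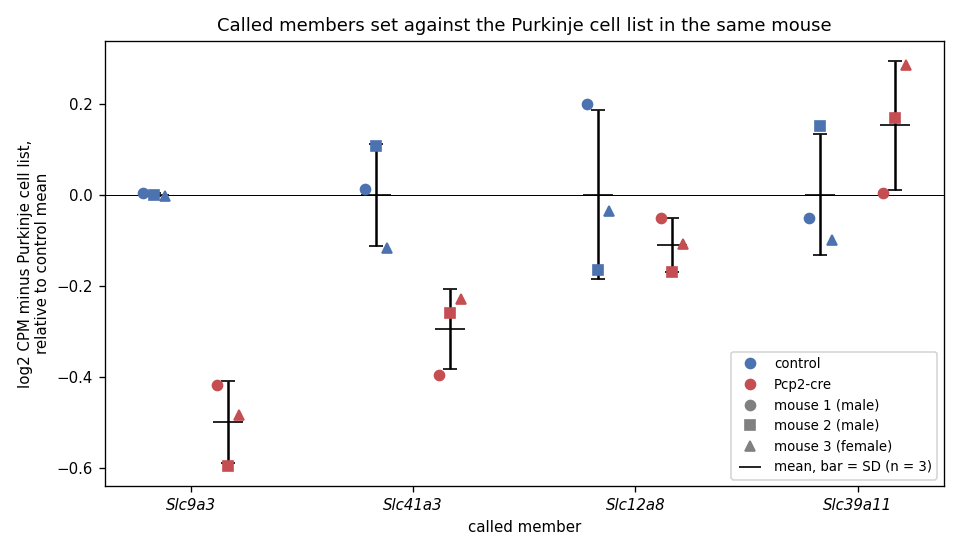
Log2 CPM of 4 called carriers minus the mean of the 10 Purkinje cell genes in the same mouse, relative to the control mean (vertical axis), with the mean and SD of 3 mice per genotype (blue control, red Pcp2-cre). *Slc9a3* and *Slc41a3* lie lower without overlap, and *Slc12a8* and *Slc39a11* overlap.

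Among the other bicarbonate carriers, *Slc4a4*, the NBCe1 cotransporter of astrocytes and Bergmann glia, was the most abundant after *Slc12a5*. It had 57.8 ± 3.93 FPKM over the controls against 58.03 ± 3.12 FPKM over the Pcp2-cre mice (SD, n = 3 each), and the interval of its log2 fold change ran from -0.084 to 0.10 (95%). *Slc4a3*, a chloride-bicarbonate exchanger of neurons, had 23.7 ± 0.365 FPKM over the controls against 24.3 ± 0.286 FPKM over the Pcp2-cre mice. Its FPKM were higher in every Pcp2-cre mouse, while its log2 fold change in counts was -0.041 ± 0.0410 (SE, adjusted p = 0.681 in edgeR) with overlap, so its direction rests on the unit. *Slc4a2*, an anion exchanger that choroid plexus also holds and which was singled out after its values were seen, had 94.2, 97.4 and 68.6 CPM in the controls and 79.02, 73.9 and 76.9 CPM in the Pcp2-cre mice. As in *Slc4a5* and *Slc4a10*, control mouse 3 was the lowest control. Its log2 change was -0.16 ± 0.0880 (SE, adjusted p = 0.363 in edgeR), and 38.8% of its exon bases overlap *Fastk* on the opposite strand. The remaining *Slc4a1*, *Slc4a7* and *Slc4a8* did not pass the threshold.

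The other 7 sodium-proton exchangers tested did not pass the adjusted p. *Slc9a9*, which acts in endosomes, was on the opposite side of 0 to *Slc9a3*. It had 9.36, 9.53 and 7.93 CPM in the controls and 11.99, 12.8 and 10.4 CPM in the Pcp2-cre mice, without overlap, and its log2 fold change of 0.41 (standard error 0.137) had an adjusted p of 0.0776 in edgeR. Summed over the family, the called *Slc9a3* included, FPKM were 92.7, 89.6 and 88.9 for controls 1 to 3. They were 83.6, 86.8 and 77.7 for Pcp2-cre mice 1 to 3 (two-sided exact permutation p = 0.10).

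The calcium-extruding carriers showed no difference past the threshold. *Slc8a1*, *Slc8a2* and *Slc8a3* encode the sodium-calcium exchangers NCX1 to NCX3. *Slc8a2* was the most abundant at 35.4 ± 1.06 FPKM over the controls against 36.8 ± 0.286 FPKM over the Pcp2-cre mice (SD, n = 3 each), and its log2 fold change had a 95% interval from -0.064 to 0.12. *Slc8a1* had an interval from -0.12 to 0.070. *Slc8a3* had 54.9, 51.8 and 58.6 CPM in the controls and 66.5, 59.6 and 56.7 CPM in the Pcp2-cre mice, a log2 change of 0.14 with an interval from -0.0013 to 0.28. Of the potassium-dependent exchangers, *Slc24a2* of neurons had 33.5 ± 1.71 FPKM over the controls against 32.9 ± 1.84 FPKM over the Pcp2-cre mice and an interval from -0.10 to 0.070, and *Slc24a3* had 24.2 ± 1.83 FPKM over the controls against 26.8 ± 3.22 FPKM over the Pcp2-cre mice and an interval from -0.064 to 0.15. For these 5 genes a change as large as the call threshold of 0.5 lies outside the interval.

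The chloride exporter of neurons and the chloride importer NKCC1 did not pass the thresholds. *Slc12a5*, which encodes the neuronal chloride exporter KCC2, had the highest FPKM of all 63 carriers. It had 110.2, 109.0 and 109.3 FPKM for controls 1 to 3 and 106.2, 106.2 and 106.4 FPKM for Pcp2-cre mice 1 to 3. The lowest control lay above the highest Pcp2-cre mouse. In counts its log2 change was -0.11 ± 0.0368 (SE, adjusted p = 0.0671 in edgeR), which passed 0.05 with DESeq2 and without the filter on low counts. *Slc12a2*, the chloride importer NKCC1, had 220.1, 223 and 185 CPM in the controls and 220.3, 214 and 207 CPM in the Pcp2-cre mice. The groups overlapped, with a log2 change of 0.031 (95% interval -0.087 to 0.15). With the choroid plexus score it was 0.17 (adjusted p = 0.118 from edgeR), and against control mouse 3 alone 0.20 (adjusted p = 0.0177 from edgeR). The log2 ratio of *Slc12a2* to *Slc12a5* in FPKM was -1.98, -1.92 and -2.21 for controls 1 to 3. It was -1.87, -1.88 and -2.08 for Pcp2-cre mice 1 to 3, a difference of 0.092 (two-sided exact permutation p = 0.50). In CPM the difference was 0.14 (exact permutation p = 0.20). Both ratios sum all cell types of the cerebellum and do not give a ratio within neurons. *Slc12a7*, which encodes KCC4, had a log2 change of -0.16 (95% interval -0.48 to 0.16).

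Zinc carriers other than *Slc39a11* did not pass the threshold in either family. *Slc30a9* was the most abundant exporter family member at 24.7 ± 1.32 FPKM over the controls against 24.7 ± 1.48 FPKM over the Pcp2-cre mice and *Slc39a13* the most abundant importer family member at 22.6 ± 1.48 FPKM over the controls against 22.6 ± 1.63 FPKM over the Pcp2-cre mice. *Slc30a10*, a manganese exporter, had 12.97, 14.00 and 12.2 CPM in the controls and 14.2, 15.01 and 17.6 CPM in the Pcp2-cre mice. The groups were apart, and its log2 fold change of 0.26 (standard error 0.116) had an adjusted p of 0.225 in edgeR. *Slc39a14* and *Slc39a8*, which import manganese and zinc, were higher in every Pcp2-cre mouse in FPKM but overlapped in CPM, with log2 fold changes of 0.12 and 0.24. *Slc39a12*, a zinc importer of the brain, had 0.11 (95% interval -0.049 to 0.26). *Slc39a10* had -0.038 and the plasma membrane exporter *Slc30a1* -0.069. *Slc30a3*, which fills synaptic vesicles with zinc, was low, with 2.25, 3.87 and 2.18 CPM in the controls and 1.45, 2.65 and 1.92 CPM in the Pcp2-cre mice, and its interval from -1.01 to 0.23 leaves a change of either sign or none. *Slc39a7* is uncertain, since it had 40, 27 and 39 counts for controls 1 to 3 and 25, 20 and 30 counts for Pcp2-cre mice 1 to 3 but 16.6 ± 1.42 FPKM over the controls against 16.4 ± 1.54 FPKM over the Pcp2-cre mice, and 78.3% of its exon bases overlap the same-strand *Gm20427*.

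In the magnesium family *Slc41a3* was the 1 carrier of 3 to pass the threshold. *Slc41a1*, a plasma membrane magnesium carrier and the most abundant of the 3, had 105, 99.5 and 110.0 CPM in the controls and 104, 108 and 118 CPM in the Pcp2-cre mice, with a log2 change of 0.062 (95% interval -0.045 to 0.17). *Slc41a2* had 22.2, 21.1 and 23.7 CPM in the controls and 21.1, 20.5 and 21.9 CPM in the Pcp2-cre mice, with -0.088 (95% interval -0.27 to 0.10). The intervals of both exclude the value of *Slc41a3*. Summed FPKM of the family were 37.3, 37.0 and 35.7 for controls 1 to 3. They were 30.7, 31.5 and 29.7 for Pcp2-cre mice 1 to 3, without overlap (two-sided exact permutation p = 0.10). The sum holds the called *Slc41a3*, so it is not a separate result. Control FPKM of *Slc41a3* (13.4) lay between those of *Slc41a1* (19.1) and *Slc41a2* (4.10), and in Pcp2-cre mice the order was the same, with *Slc41a3* at 6.25, *Slc41a1* at 20.5 and *Slc41a2* at 3.89.

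**Figure D5:**
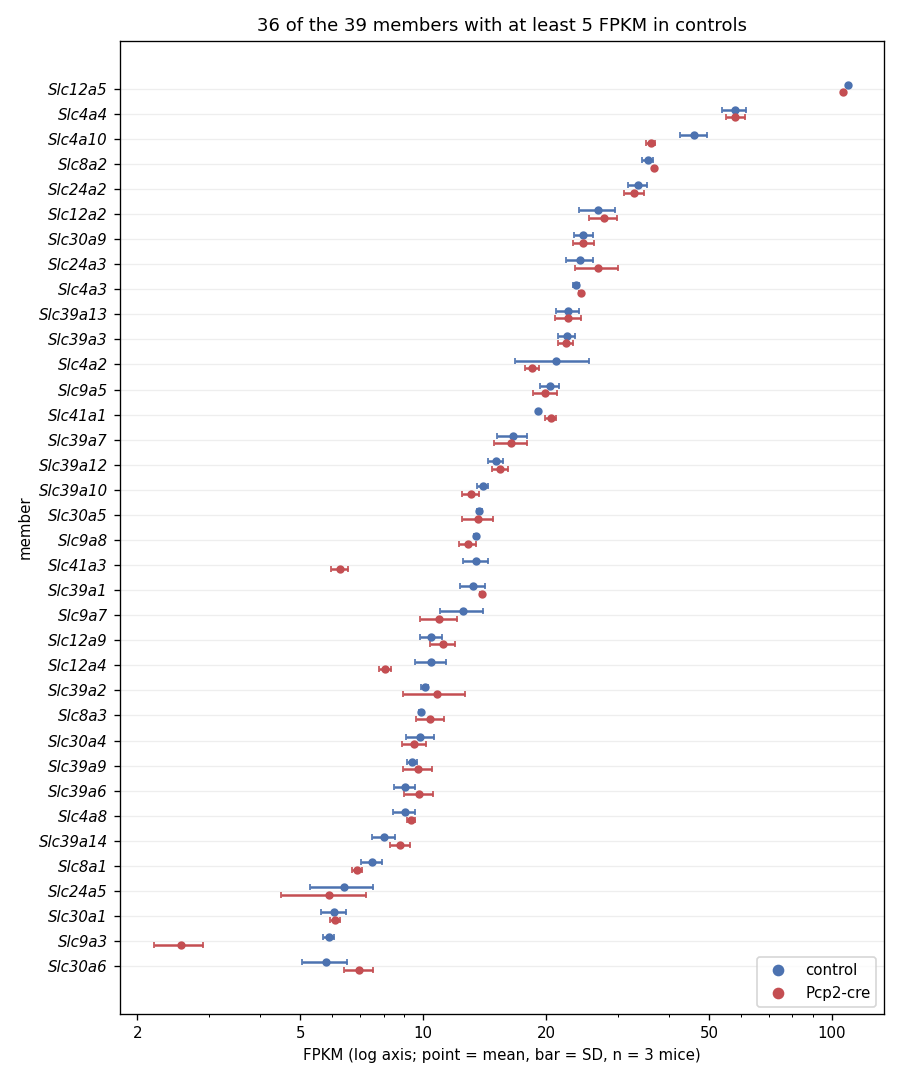
Deposited FPKM (log axis) of 36 of the 39 carriers with at least 5 FPKM in controls, as mean and SD of 3 control mice (blue) and 3 Pcp2-cre mice (red), in order of control level from *Slc12a5* (109 FPKM) down. *Slc41a3* and *Slc9a3* have the widest gaps between genotypes among those drawn.

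Of the 63, 10 carriers, *Slc4a9*, *Slc4a11*, *Slc9a4*, *Slc12a1*, *Slc12a3*, *Slc24a1*, *Slc30a2*, *Slc30a8*, *Slc39a4* and *Slc39a5*, did not pass the filter, with at most 13 counts in any mouse. *Slc12a1* and *Slc12a3* are kidney carriers and *Slc30a8* is the zinc carrier of pancreatic islets. *Slc30a8* had 0 counts in all 6 mice, and the floor of 3 counts corresponds to 0.297 to 0.447 CPM, for counting error only. Differences among these 10 were not detectable at this depth.

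Genes that act with the carriers were taken from a fixed list of 52, of which 50 were tested with a median log2 fold change of 0.010. Of these, 1 was called higher (2%, against 1.37% of all genes) and 3 lower (6%, against 1.79%). At an adjusted p of at most 0.05 with any fold change 5 were higher (10%, against 2.99% of all genes) and 9 lower (18%, against 4.75%). Among sodium pump genes, *Fxyd7*, a pump regulator of neurons, had 4.99, 4.76 and 4.46 CPM in the controls and 7.11, 7.85 and 8.88 CPM in the Pcp2-cre mice, a log2 change of 0.74 ± 0.170 (SE, adjusted p = 0.00653 in edgeR). The pump subunits *Atp1b2* and *Atp1b3* were higher by 0.19 and 0.16. *Atp2b2*, the plasma membrane calcium pump abundant in Purkinje cells, had 952, 937 and 923 CPM in the controls and 694, 637 and 691 CPM in the Pcp2-cre mice, a log2 change of -0.48 just short of the threshold. Of the carbonic anhydrases, which supply the bicarbonate that Slc4 carriers move, *Car8*, an inactive relative abundant in Purkinje cells, had -0.96, *Car7* -0.45 and *Car4* 0.18. *Car12* was called lower with 15.8, 26.5 and 1.09 CPM in the controls and 1.05, 1.04 and 2.96 CPM in the Pcp2-cre mice, again with control mouse 3 at the Pcp2-cre level. *Cab39l*, an activator of the kinases that switch Slc12 carriers, had 42.3, 45.6 and 28.4 CPM in the controls and 27.1, 24.4 and 28.7 CPM in the Pcp2-cre mice with control mouse 3 likewise the lowest control, while the kinase *Wnk2* had -0.24 without overlap. Outside Slc41, the magnesium genes *Cnnm1* and *Cnnm2* had -0.25 and -0.31, both without overlap. Of the zinc buffers, *Mt1* was higher by 0.24. No sodium-proton exchanger partner passed the adjusted p, nor did *Slc8b1*, *Slc9b1* or *Slc9b2*, relatives that the symbol rule leaves out. A further relative, *Slc9c1*, had 0 counts in every mouse and was not tested.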

How the data were processed

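Cerebella of 3 control and 3 Pcp2-cre mice were sequenced from poly A-enriched RNA. The authors aligned trimmed read pairs to the GRCm39 genome by STAR and counted Gencode features with featureCounts and StringTie. Tool versions, Gencode release, strand setting and handling of multi-mapped reads are not given in the sources used here. One deposited table holds raw counts and a separate deposited table holds FPKM. Genotype, sex and mouse number came from the labels.

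The counts were fitted by edgeR 4.0.16 under R 4.3.3 (filterByExpr, TMM, quasi-likelihood test) on the whole table, with Benjamini-Hochberg adjustment over 16961 genes. Calls required an adjusted p no larger than 0.05 and a log2 fold change no smaller in size than 0.5. Log2 CPM used a prior count of 2. FPKM were compared with two-sided exact permutation tests and, as an alternative, with limma 3.58.1 on log2(FPKM + 1) and log2(FPKM + 0.1). Other alternatives were DESeq2 1.42.0, its size factors, no filter, at least 10 counts per mouse, other fold thresholds, sex as a covariate, a choroid plexus score as a covariate, a replicate block, and fits without each mouse. Libraries of one genotype differed beyond sampling noise (chi-square per gene 1.35 to 3.39), so each counted as 1 replicate. Scripts were tested on simulated counts. Coordinates, exon overlaps and the symbols of 2 partner genes were taken from Gencode M39, and start windows from RefSeq.

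The carriers and gene lists were chosen with earlier results of these data known. Named were carriers with an adjusted p of at most 0.05, the most abundant of each family, those with an unadjusted p under 0.05 and groups apart, a fixed list of 24 and *Slc4a5*; *Slc4a2*, *Slc39a7* and the carriers under the filter or only listed as not passing were added after their values were seen. Some genes under this rule are not reported or drawn here.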

Additional observations from a re-analysis of the deposited data

How the results depend on the processing

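Each mouse is 1 library at moderate depth, so carriers under about 10 CPM have wide intervals. Of the 5 carriers called lower, 5 were kept with DESeq2 size factors, without a filter, with at least 10 counts in every mouse and with sex as a covariate. There were 3 with the fold threshold at 1 (losing *Slc12a8* and *Slc39a11*), 3 with DESeq2 and 3 with limma on log2(FPKM + 1) or log2(FPKM + 0.1) (losing *Slc39a11* and *Slc4a5*), and 2 with the choroid plexus score or with control mouse 3 as the only control (losing *Slc12a8*, *Slc39a11* and *Slc4a5*). Leaving out 1 mouse gave 3 to 5, beside 243 to 387 genes called lower in the whole table. The same-numbered mice had correlations of deviations of 0.041, 0.056 and 0.17. The other male pairs had 0.052 and 0.073, and pairs of unlike sex had -0.11 to -0.081. Male pairs were alike whether or not their numbers matched, so the numbers were not taken to pair the samples. With a replicate block 5 carriers were called, the same 5, and 319 genes of the whole table were lower and 229 higher. Over all genes, 304 were lower and 233 higher in the main fit. Without a fold threshold 805 were lower and 507 higher, and with that threshold at 1 it was 94 and 142. There were 231 lower and 150 higher with DESeq2, 155 and 126 with log2(FPKM + 1), and 167 and 144 with log2(FPKM + 0.1). With DESeq2 size factors, no filter, at least 10 counts per mouse or sex as a covariate, 285 to 393 were lower. The list median was -0.0095 and -0.010 with the FPKM alternatives and -0.0077 with control mouse 3 as the only control.

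Signs reversed in carriers near 0, none with an adjusted p of at most 0.05, and in *Slc4a5*; the cause was not tested. With log2(FPKM + 1) and log2(FPKM + 0.1) the log2 fold changes were 0.036 and 0.037 for *Slc4a3*, 0.0080 and 0.0094 for *Slc30a1*, and 0.0014 and 0.0015 for *Slc39a13*. With the choroid plexus score and with control mouse 3 as the only control they were 0.020 and 0.50 for *Slc4a5*, 0.017 and 0.023 for *Slc24a2*, 0.038 and 0.058 for *Slc30a9*, and 0.052 and 0.064 for *Slc39a10*; *Slc41a1* was -0.0030 in the latter. *Slc4a4* was -0.0024 without a filter. Without 1 mouse each in turn, log2 fold changes ranged from -0.035 to 0.060 for *Slc4a4*, -0.050 to 0.0096 for *Slc8a1*, -0.015 to 0.058 for *Slc8a2*, -0.055 to 0.075 for *Slc12a2*, -0.038 to 0.020 for *Slc24a2*, -0.017 to 0.095 for *Slc24a3*, -0.053 to 0.024 for *Slc30a9*, -0.098 to 2.4e-04 for *Slc39a10* and -0.081 to 0.0072 for *Slc39a13*.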
